A study of Mus musculus with 6 samples.

Results

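The ELAVL, RBFOX, NOVA and PTB proteins are RNA-binding regulators that set how transcripts are spliced, stabilised and translated as neural progenitors turn into neurons. Their genes were taken by name: Elavl2, Elavl3 and Elavl4, Rbfox1, Rbfox2 and Rbfox3, Nova1 and Nova2, and Ptbp1 and Ptbp2. These are 10 of the 33084 genes in the count table, and all 10 passed the filter on low counts, which left 19616 genes. RNA was sequenced from mouse forebrain at embryonic day 15.5, in 3 mutant libraries and 3 control libraries. The mutants carried the genotype Dyrk1a<DlxCre/+>, in which DYRK1A, a kinase of cell cycle exit and neuronal development, was conditionally inactivated within the Dlx5 domain. That domain covers the GABAergic lineage of the ventral forebrain as it develops. Since the genotype is written with a +, 1 Dyrk1a copy is taken to remain there, and other forebrain cells lie outside the driver's domain. The controls were labelled wt, and the labels do not say whether they carried the Cre driver or the conditional allele. Nothing in them tells if litters were shared, so p-values measure only the spread between these samples, which may be technical.

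ELAVL2, ELAVL3 and ELAVL4 are the neuronal Hu proteins, which bind U-rich and AU-rich stretches and stabilise or alternatively splice neuronal transcripts. RBFOX proteins bind a short GCAUG element beside alternative exons, and RBFOX3 carries the NeuN epitope used to stain mature neurons. NOVA proteins bind clusters of short CA-containing elements through KH domains and control exons of synaptic transcripts. PTBP1 holds neuronal exons out of transcripts in progenitors and other cells, among them an exon whose skipping sends the Ptbp2 transcript to decay. PTBP2 takes its place in young neurons, so the balance of Ptbp1 and Ptbp2 is read as a switch at neuronal differentiation. The counts were summed over whole genes, so they give transcript levels and not the exon choices these proteins make.

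Members of 1 family have similar coding sequences, so the closest stretches are printed to show what separates them in a count table. Each line is the 30-base coding window in which the family was most alike, read 5′ to 3′ from the GENCODE M21 transcripts on GRCm38, with capitals at the positions where members of the family differ.
Elavl2: gacagcaaGaccaacctAatAgtcaactaC
Elavl3: gacagcaaGaccaacctCatCgtcaactaC
Elavl4: gacagcaaAaccaacctCatCgtcaactaT
Rbfox1: gtagagggCcgTaaaatCgaggtTaataat
Rbfox2: gtagagggCcgTaaaatCgaggtGaataat
Rbfox3: gtagagggAcgGaaaatTgaggtCaataat
Nova1: ggagccacTatcaagctgtctaaAtccaaa
Nova2: ggagccacCatcaagctgtctaaGtccaaa
Ptbp1: taCactcgacctgaCctgccCtctggagac
Ptbp2: taTactcgacctgaTctgccAtctggagac
The Elavl2 window started at coding base 193 of 1167, and the Elavl3 and Elavl4 windows differed from it at 2 and 4 positions. The Rbfox2 and Rbfox3 windows differed from that of Rbfox1 at 1 and 4 positions, Nova2 from Nova1 at 2 and Ptbp2 from Ptbp1 at 3. Over the whole coding sequences of 13 pairs within a family, with Elavl1 and Ptbp3 added, the longest identical run was between 14 and 29 bases. No pair shared any stretch of 50 bases over all annotated transcripts. A read of that length without a mismatch could match at most 1 of these genes. No source used here gives the read length, and other loci were not compared.

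The libraries held 28339650, 25360030 and 27261073 counts in mutant replicates 1, 2 and 3, and 33260333, 24646616 and 38315004 in control replicates 1, 2 and 3. The 10 genes together took 54211 to 65703 counts per mutant library and 59697 to 82383 per control library. Counting error was small beside the spread between libraries for this sum. It weighs more for Rbfox3, which held 864 to 1289 counts per library. Dyrk1a itself averaged 175 ± 14.6 CPM in mutants and 177 ± 7.58 CPM in controls (SD, n = 3 each; CPM, counts-per-million). Its log2 fold change was -0.02 ± 0.09 (SE), and a two-sided exact permutation test over 20 assignments gave p = 0.90, where 0.10 is the smallest it allows. That count covers the whole gene and does not single out a deleted part. All genes on the neuron, radial glia, cortical and GABAergic marker lists were detected in every library. The replicate 3 libraries of both genotypes stood apart from the other 4 on the first principal component, which held 37.4% of the variance. Mutant replicate 2 differed from the other mutants by the GC content of genes, a contrast given for this library only. Both facts touch the genes described here, and the values are given beside them.

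Levels per kilobase of exon (RPKM, the CPM divided by the summed exon length in kilobases) spread widely among the 10 genes. Rbfox2, the RBFOX gene with the broadest expression across tissues, was highest at 89.1 ± 5.16 RPKM in mutants and 93.0 ± 4.02 in controls (SD, n = 3 each). Over all 6 libraries it ran from 83.3 to 95.8 RPKM, above every library of every other member, and its mean exceeded that of 98.6% of tested protein-coding genes. Ptbp2 followed with 49.7 ± 9.99 RPKM in mutants and 51.6 ± 3.23 in controls. Elavl3, Elavl2 and Ptbp1 came next with means over all libraries of 35.0, 31.9 and 29.7 RPKM. Their library ranges overlapped: Elavl3 exceeded Elavl2 in 5 of 6 libraries and Elavl2 exceeded Ptbp1 in 3 of 6. Ptbp2 exceeded Elavl3 in 5 of 6 libraries, and Ptbp1 exceeded Elavl4 in 4 of 6.

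The lower part of the order was more regular. Elavl4 averaged 25.7 RPKM, Rbfox1 19.1, Nova1 11.6, Nova2 7.73 and Rbfox3 5.67 over the 6 libraries. Each of these exceeded the next in 6 of 6 libraries, although the ranges of neighbours overlapped between libraries. Rbfox3 lay at the middle of the tested protein-coding genes, above 49.0% of them. The order of the means over libraries of both genotypes did not change when any 1 library was left out or when DESeq2 size factors were used. Within genotypes its middle differed. Elavl3, Ptbp1 and Elavl2 held ranks 3, 4 and 5 in mutants, and Elavl2, Elavl3 and Ptbp1 held them in controls. With the length of the longest protein-coding transcript in place of the summed exon length, 6 of the 10 changed rank: Ptbp2 stood above Rbfox2 at 123 against 107 RPKM, Elavl2 above Elavl3 at 63.3 against 48.1, and Rbfox3 above Nova2 at 10.5 against 7.73. Levels between genes therefore depend on which exons are taken as the transcript.

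**Figure D1:**
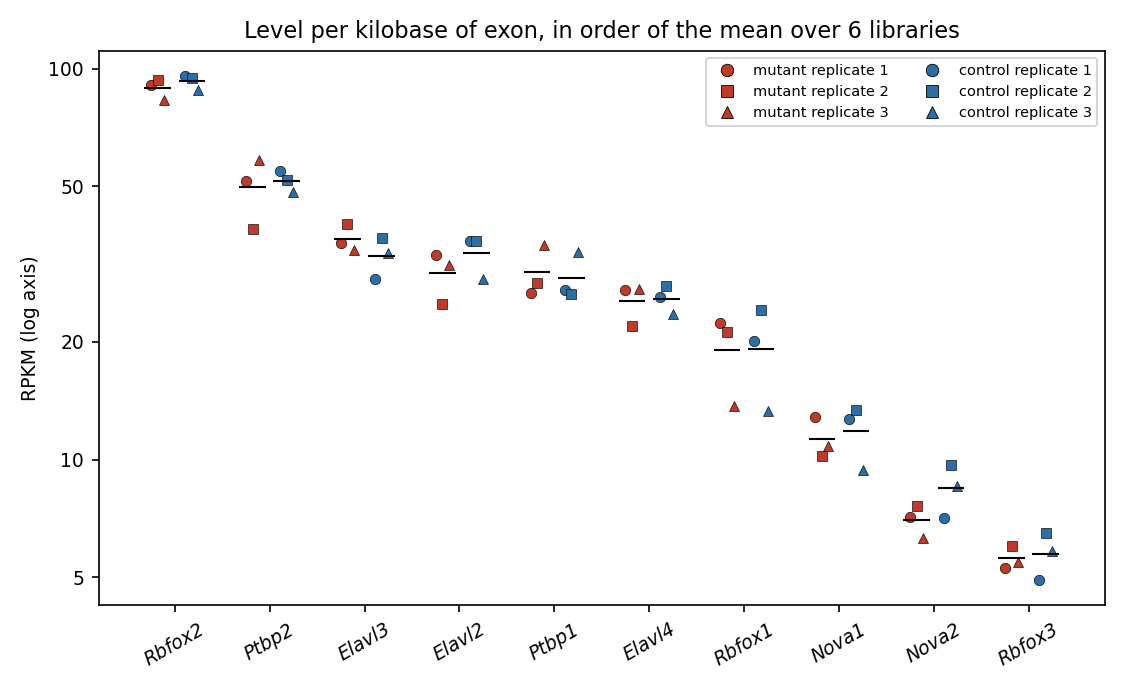
Level of each gene in RPKM (log axis) in the 3 mutant and 3 control libraries, ordered by the mean over all 6. Points are libraries and lines are group means. Rbfox2 sits between 83.3 and 95.8 RPKM, above all other members, and Rbfox3 is lowest with a mean of 5.67.

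Mutants were set against controls, the 1 comparison the study was built for, to see whether these regulators differed with the Dyrk1a<DlxCre/+> genotype. None of the 10 regulators passed the threshold of 0.05 by the quasi-likelihood test of edgeR, adjusted over all tested genes (adjusted p = 0.9999 for each). In all, 0 of 19616 tested genes passed, or 0%, and 376, or 1.92%, had an unadjusted p under 0.05. No gene was called by DESeq2, which put 261 under that unadjusted level, nor by limma-voom with sample weights, which put 1904 there. Among the 10 regulators 0 had an unadjusted p under 0.05 in the edgeR test. The mutant and control libraries overlapped for all 10, where the groups did not overlap for 6.89% of tested genes (3.19% with mutants higher and 3.7% with mutants lower). A lack of calls does not show that the levels were equal, and the 95% intervals below give the changes these libraries still allow. Whole forebrain also holds cells outside the Dlx5 domain that express these genes, and their RNA is part of every value. In such tissue, fewer cells of a type and less RNA per cell cannot be told apart.

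Among the neuronal Hu genes, Elavl2 (ENSMUSG00000008489, chromosome 4, 91250763 to 91400785, reverse strand) held 277, 208 and 261 CPM in mutant replicates 1, 2 and 3, against 302, 301 and 241 CPM in control replicates 1, 2 and 3. All 3 mutants lay below the control mean, but control replicate 3 lay below mutant replicates 1 and 3. Mutant over control, the log2 fold change was -0.18 ± 0.13 (SE), and its 95% interval ran from a change of -28.2% to one of 8.93%. It was -0.33 among replicates 1 and 2 and 0.12 between the replicate 3 libraries, so its direction was not the same in both. After correction of each library for GC content and transcript length it was -0.08.

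Elavl3 (ENSMUSG00000003410, chromosome 9, 22015005 to 22052023, reverse strand) had a difference of the other sign. It held 247, 276 and 236 CPM in mutants and 200, 254 and 233 CPM in controls. All 3 mutants lay above the control mean, and control replicates 1 and 3 lay below every mutant, while control replicate 2 lay above mutant replicates 1 and 3. This gave a log2 fold change of 0.14 ± 0.11 (SE), with an interval from -6.82% to 31.2%. It was 0.21 among replicates 1 and 2 and 0.02 between the replicate 3 libraries.

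Elavl4 (ENSMUSG00000028546, chromosome 4, 110203722 to 110351909, reverse strand), whose product stabilises growth-associated transcripts such as Gap43, held 147, 118 and 147 CPM in mutants and 140, 150 and 127 CPM in controls. Mutant replicate 2 was the lowest of the 6 libraries, and the other mutants lay within the control range. Elavl4 had a log2 fold change of -0.02 ± 0.11 (SE), with an interval from -17.1% to 17.7%. Summed over the 3 Hu genes, levels were 92.2 ± 4.77 RPKM in mutants and 92.9 ± 7.33 in controls (SD, n = 3 each). Elavl2 made up 32.4 ± 3.17% of that sum in mutants and 36.4 ± 3.13% in controls, and Elavl3 40.0 ± 5.19% in mutants and 35.8 ± 3.75% in controls. The log2 ratio of Elavl2 over Elavl3 was -0.11, -0.68 and -0.13 in mutants and 0.32, -0.02 and -0.22 in controls. The groups overlapped, and the difference of -0.33 was slightly larger than the pooled SD of 0.30.

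For the RBFOX family, Rbfox1 (ENSMUSG00000008658, chromosome 16, 5885355 to 7411526, forward strand), expressed in neurons and muscle, held 98.5, 93.2 and 60.4 CPM in mutants and 88.5, 106 and 58.7 CPM in controls. The 2 lowest values were the replicate 3 libraries of either genotype, and the group means were nearly equal. The log2 fold change was -0.01 ± 0.23 (SE), the least precise of the 10, with an interval from -31.0% to 44.0%. Among replicates 1 and 2 it was -0.02, and between the replicate 3 libraries 0.04.

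Rbfox2 (ENSMUSG00000033565, chromosome 15, 77078990 to 77307004, reverse strand) was the most precisely measured. Its libraries held 737, 760 and 678 CPM in mutants and 780, 772 and 719 CPM in controls. Mutant replicate 3 was the lowest of the 6 libraries and control replicate 1 the highest, and mutant replicates 1 and 2 lay within the control range. Its log2 fold change was -0.06 ± 0.08 (SE), with an interval from -15.8% to 8.93%.

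Rbfox3 (ENSMUSG00000025576, chromosome 11, 118489762 to 118911597, reverse strand) held 30.8, 35.0 and 31.9 CPM in mutants and 28.6, 37.8 and 34.0 CPM in controls. The controls spread more widely and enclosed all 3 mutants. Rbfox3 had a log2 fold change of -0.04 ± 0.12 (SE), with an interval from -19.3% to 17.5%. Rbfox2 made up 78.4 ± 2.50% of the summed family level in mutants and 79.0 ± 3.30% in controls, while Rbfox3 made up 4.94 ± 0.44% in mutants and 4.89 ± 0.72% in controls (SD, n = 3 each). Both shares differed by less than 1 SD between the groups.

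Of the NOVA genes, Nova1 (ENSMUSG00000021047, chromosome 12, 46694517 to 46818929, reverse strand) held 112, 89.5 and 94.9 CPM in mutants and 111, 117 and 82.5 CPM in controls. The mutants lay inside the control range. Its log2 fold change was -0.06 ± 0.14 (SE), with an interval from -23.8% to 19.9%. It was -0.18 among replicates 1 and 2 and 0.20 between the replicate 3 libraries.

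Nova2 (ENSMUSG00000030411, chromosome 7, 18925888 to 18965319, forward strand), the NOVA gene known for expression in mouse neocortex, had the smallest p of the 10. It held 59.6, 63.7 and 52.8 CPM in mutants and 59.5, 81.1 and 71.7 CPM in controls. All 3 mutants lay below the control mean, but control replicate 1 lay at the level of mutant replicate 1, so the groups overlapped. Its log2 fold change was -0.27 ± 0.13 (SE), with an interval from -32.0% to 1.28%. Among replicates 1 and 2 it was -0.17, and between the replicate 3 libraries -0.44. Leaving out 1 library at a time gave -0.38 to -0.16, the first of these without control replicate 1 and the second without control replicate 2. Nova2 shares 2652 of its 8372 exon bases with Gm26821 on the opposite strand, which held 0 to 5 counts per library. The strand setting of the counts is not given, so how reads in those bases were counted is not known. The Nova2 level per kilobase could be affected. The log2 ratio of Nova2 over Nova1 was -0.85, -0.43 and -0.78 in mutants and -0.84, -0.47 and -0.14 in controls, a difference of -0.21 against a pooled SD of 0.29.

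The PTB genes are the pair of the neuronal switch. Ptbp1 (ENSMUSG00000006498, chromosome 10, 79854427 to 79864771, forward strand) held 126, 134 and 167 CPM in mutants and 128, 126 and 161 CPM in controls. In each genotype replicate 3 was highest, and the others were close together. The log2 fold change was 0.04 ± 0.14 (SE), with an interval from -16.9% to 27.6%. It was 0.04 among replicates 1 and 2 and 0.05 between the replicate 3 libraries. On the opposite strand, 3 genes share exon bases with Ptbp1. Plppr3 shares 251 and held 5933 to 9042 counts per library, more than the 3105 to 6116 counts of Ptbp1 itself. E130317F20Rik shares 295 and held 423 to 715 counts, and Gm17134 shares 437 and held 19 to 42. No source used here gives the strand setting of the counts, so in the shared exons reads of Ptbp1 and of these genes cannot be told apart.

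Ptbp2 (ENSMUSG00000028134, chromosome 3, 119718742 to 119784466, reverse strand) held 474, 357 and 537 CPM in mutants and 502, 476 and 443 CPM in controls. The mutants held both the lowest and the highest of the 6 libraries. Its log2 fold change was -0.05 ± 0.14 (SE), with an interval from -22.8% to 20.2%. Among replicates 1 and 2 it was -0.25, and between the replicate 3 libraries 0.28. Ptbp2 exceeded Ptbp1 per kilobase in every library, between 1.37 and 2.02 times. On the log2 scale the ratio was 0.95, 0.45 and 0.73 in mutants and 1.01, 0.97 and 0.50 in controls. The genotype difference of -0.11 was smaller than the pooled SD of 0.27. With the longest-transcript length the mean log2 ratio was 1.47 in place of 0.77.

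**Figure D2:**
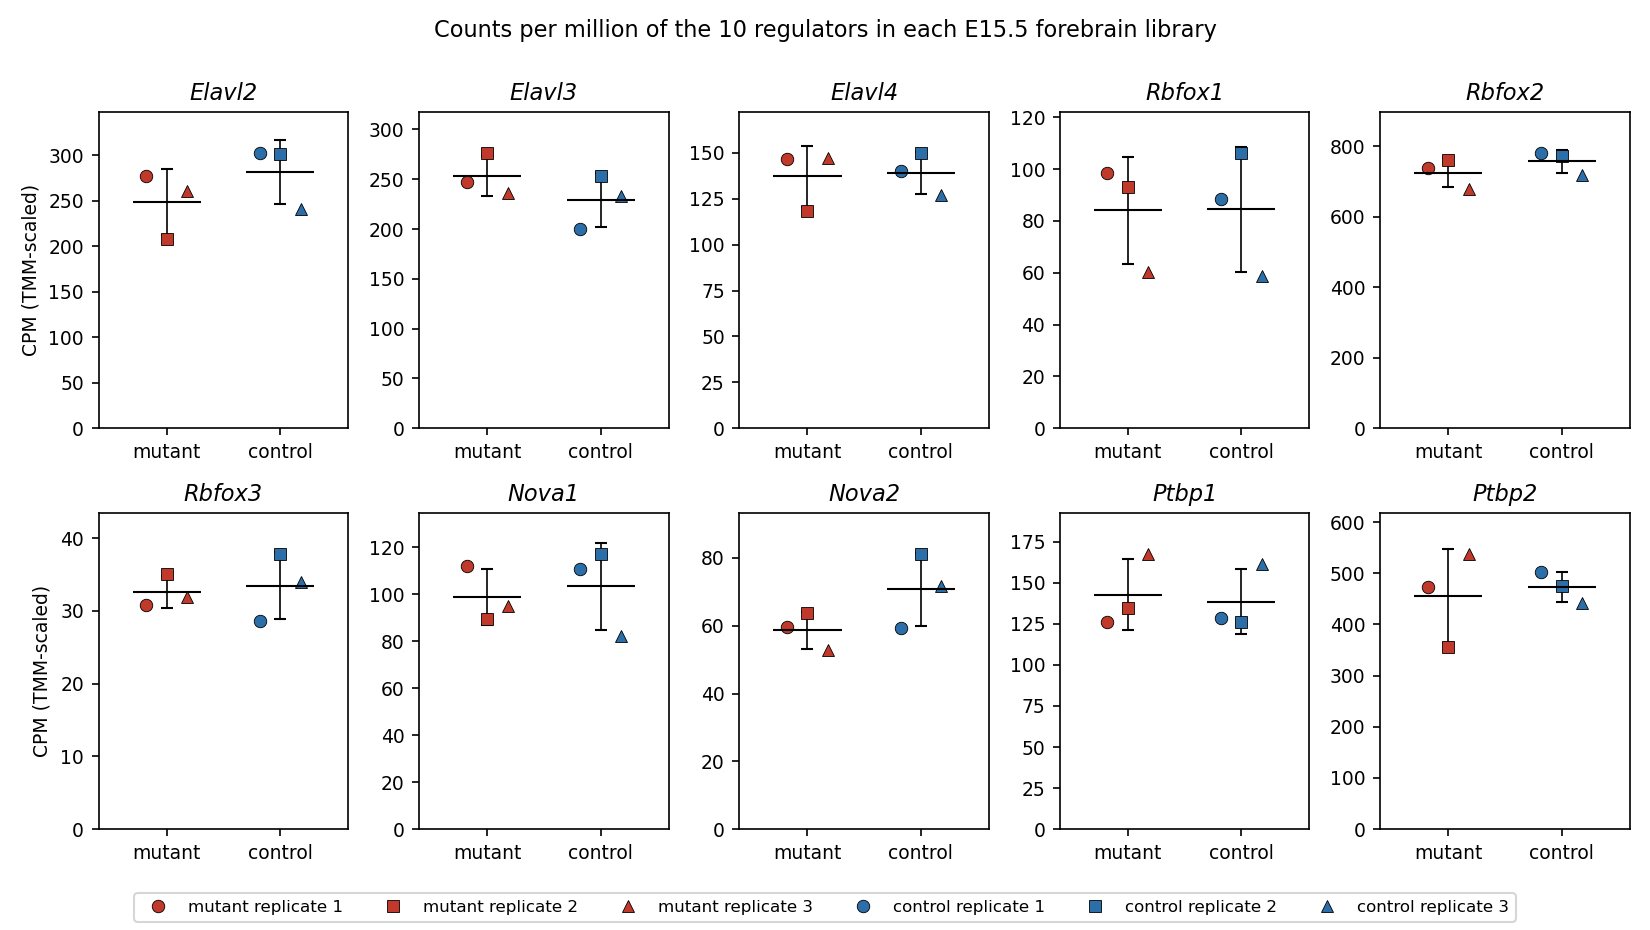
TMM-scaled CPM of each gene in every library, with mutants left and controls right in each panel. Lines are group means and error bars are SD (n = 3 each). The groups overlap in all 10 panels, and the replicate 3 libraries (triangles) are low for Rbfox1 and high for Ptbp1 in both genotypes.

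**Figure D3:**
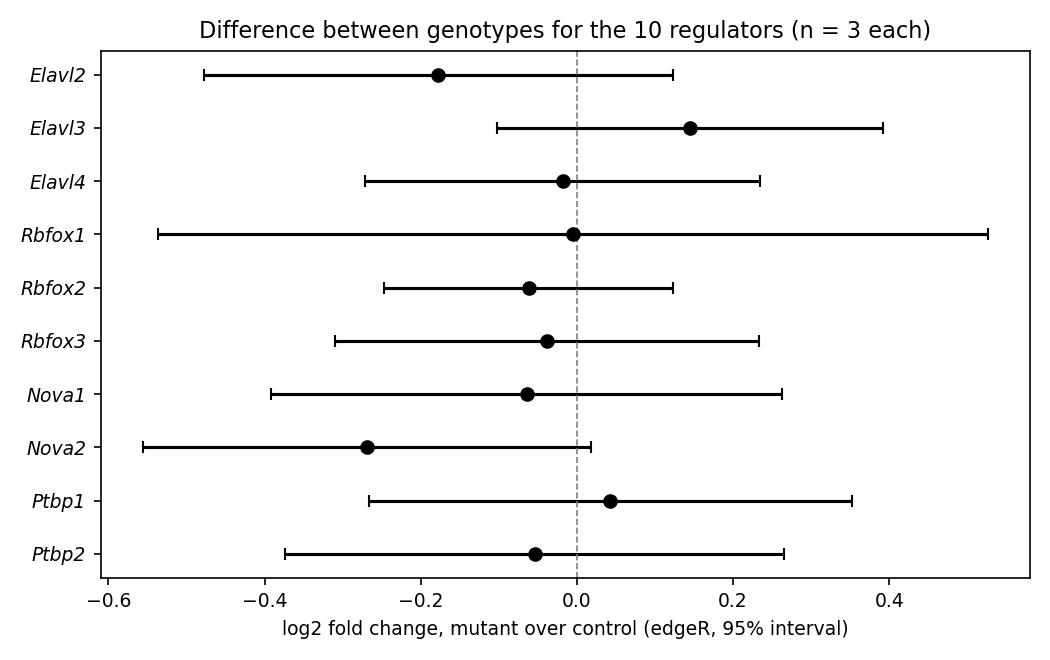
Log2 fold change of each gene, mutant over control, with the 95% interval from edgeR's fit (n = 3 each). All 10 intervals include 0. The largest distance from 0 is that of Nova2 at -0.27, and the widest interval is that of Rbfox1.

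For Ptbp1 and Rbfox1, as for the other members, libraries of 1 genotype differed by more than the genotype means did. In both genotypes replicate 3 was the library apart for Ptbp1 and Rbfox1. Ptbp1 was higher in replicate 3 than in replicates 1 and 2 by 0.36 log2 units in mutants and 0.34 in controls. Rbfox1 was lower there, with log2 differences of -0.67 in mutants and -0.72 in controls. Both Ptbp1 replicate 3 libraries lay above the other 4, and both Rbfox1 and both Rbfox2 replicate 3 libraries lay below them. Such separation held for 3 of the 10 regulators, a share close to the 34.4% of all tested genes (17.3% above and 17.1% below). In size, 4.84% of tested genes were at least as high as Ptbp1 in both genotypes and 2.12% at least as low as Rbfox1.

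Cell type markers moved in the same libraries. The 12 proliferating cell genes, which include Mki67 and Top2a, averaged 0.71 log2 units higher in replicate 3 in mutants and 0.69 in controls. The 12 radial glia and progenitor genes were 0.33 higher in mutants and 0.39 in controls. Neuronal genes went the other way, with differences of -0.34 in mutants and -0.30 in controls over 12 genes. Their summed level was 6139 CPM in mutant replicate 3 against 7101 and 7316 CPM in the other mutants, and 6106 CPM in control replicate 3 against 7245 and 7401 CPM in the other controls. The GABAergic list differed by 0.01 in mutants and 0.12 in controls and the cortical excitatory list by 0.01 in mutants and -0.01 in controls. On the red blood cell list the embryonic globin genes were higher in replicate 3, Hbb-y by 3.07 in mutants and 3.22 in controls, Hbb-bh1 by 1.88 in mutants and 2.51 in controls and Hba-x by 1.68 in mutants and 1.76 in controls. The adult globin genes and Alas2, an enzyme gene of haem synthesis, lay lower or near 0. Hbb-bs had -0.42 in mutants and -0.58 in controls, Alas2 had -0.31 in mutants and -0.47 in controls, and Hbb-bt had 0.00 in mutants and -0.25 in controls. The part of these cell types in the Ptbp1 and Rbfox1 values was not tested.

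**Figure D4:**
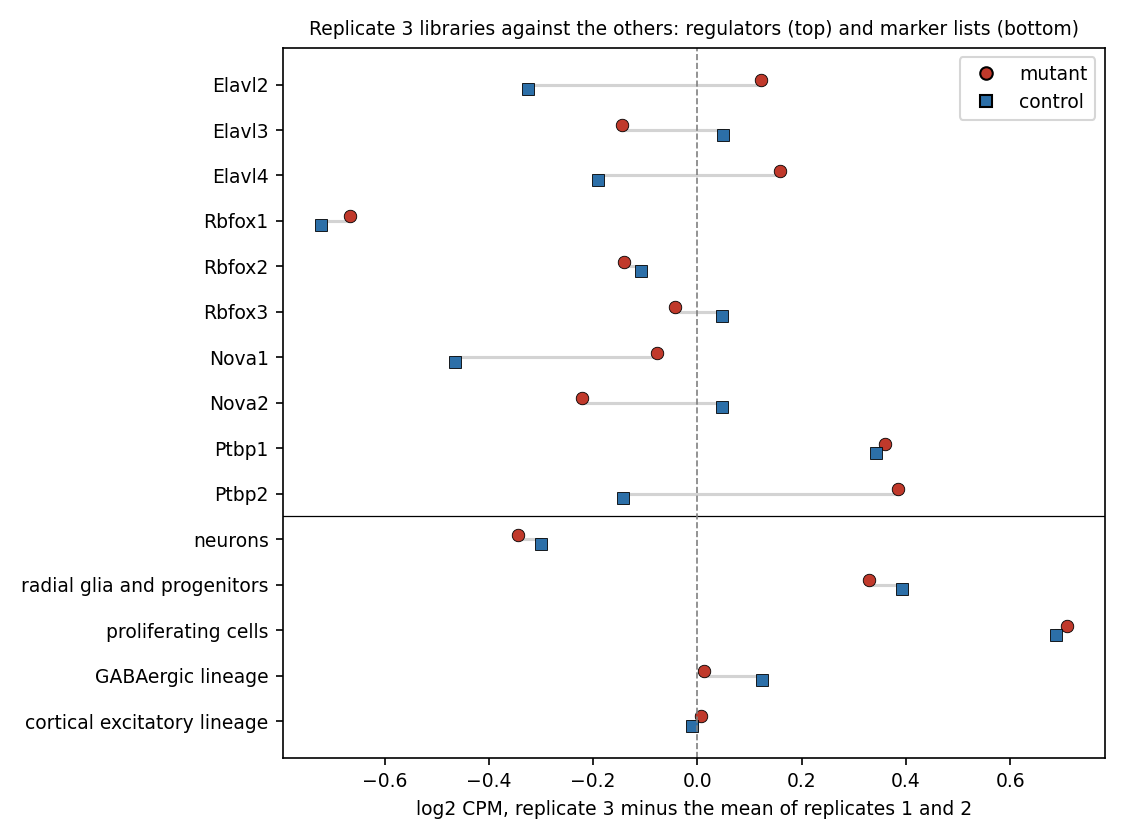
Log2 CPM of replicate 3 minus the mean of replicates 1 and 2, within mutants (circles) and within controls (squares), for the 10 regulators above the line and for 5 marker lists (mean over 12 genes each) below it. Ptbp1 and Rbfox1 have nearly the same value in both genotypes, as do the neuron and proliferating cell lists.

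For 6 of the 10 members the replicate 3 difference had opposite signs in the genotypes. Elavl3 differed by -0.14 in mutants and 0.05 in controls, Nova2 by -0.22 in mutants and 0.05 in controls and Rbfox3 by -0.04 in mutants and 0.05 in controls. Ptbp2 was 0.39 higher in replicate 3 in mutants and differed by -0.14 in controls. Elavl2 differed by 0.12 in mutants and -0.32 in controls, and Elavl4 by 0.16 in mutants and -0.19 in controls. Nova1 was lower in both, with -0.08 in mutants and -0.47 in controls. Elavl2, Elavl4, Ptbp2 and Nova1 have the lowest GC content of the 10, between 38.5% and 43.1% in their longest transcript, and mutant replicate 2 was low in genes of that kind. There, Elavl2 lay 0.37 log2 units below the mean of the other mutants (a difference of -0.37), and Elavl4, Ptbp2 and Nova1 had differences of -0.31, -0.50 and -0.21. Elavl2, Elavl4 and Ptbp2 were lowest of all 6 libraries in mutant replicate 2. Control replicate 3 was also below the mean of the other controls for these genes and Nova1, by the differences above. Nova1 was lowest of all 6 libraries there, at 82.5 CPM. Against mutant replicate 1, mutant replicate 3 was lower for Elavl2 (261 against 277 CPM) and higher for Rbfox3 (31.9 against 30.8 CPM). Both are the direction seen in controls, so the opposite signs of these genes rested on mutant replicate 2. Elavl4 held 147 CPM in each of these mutant libraries. Elavl3 (236 against 247 CPM), Nova2 (52.8 against 59.6 CPM) and Ptbp2 (537 against 474 CPM) kept a direction opposite to controls.

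Over all tested genes the same contrast had a median of -0.37 in the GC decile with the lowest content and 0.19 in the decile with the highest. The GC-rich members lay on the other side: Elavl3 (54.1% GC) stood at 0.19, Nova2 (56.3%) at 0.18 and Rbfox3 (58.6%) at 0.16. Ptbp2 lay further down than the median of -0.12 of its decile, and Rbfox1 at 0.27 lay above the same median. Ptbp1 stood at -0.11, below the median of 0.11 of genes of its GC content. For Rbfox1 and Ptbp1 this contrast also carries mutant replicate 3, which is part of its baseline. Rbfox1 held 93.2 CPM in mutant replicate 2, against 98.5 in mutant replicate 1 and 60.4 in mutant replicate 3. Ptbp1 held 134 CPM there, against 126 in mutant replicate 1 and 167 in mutant replicate 3. Against mutant replicate 1, then, mutant replicate 2 was lower for Rbfox1 and higher for Ptbp1, each in the direction of the median of its decile. Their distance from the medians thus rests on mutant replicate 3 in the baseline. Without mutant replicate 2, the log2 fold change between genotypes was -0.06 for Elavl2, 0.08 for Elavl4 and 0.10 for Ptbp2, none past the threshold.

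**Figure D5:**
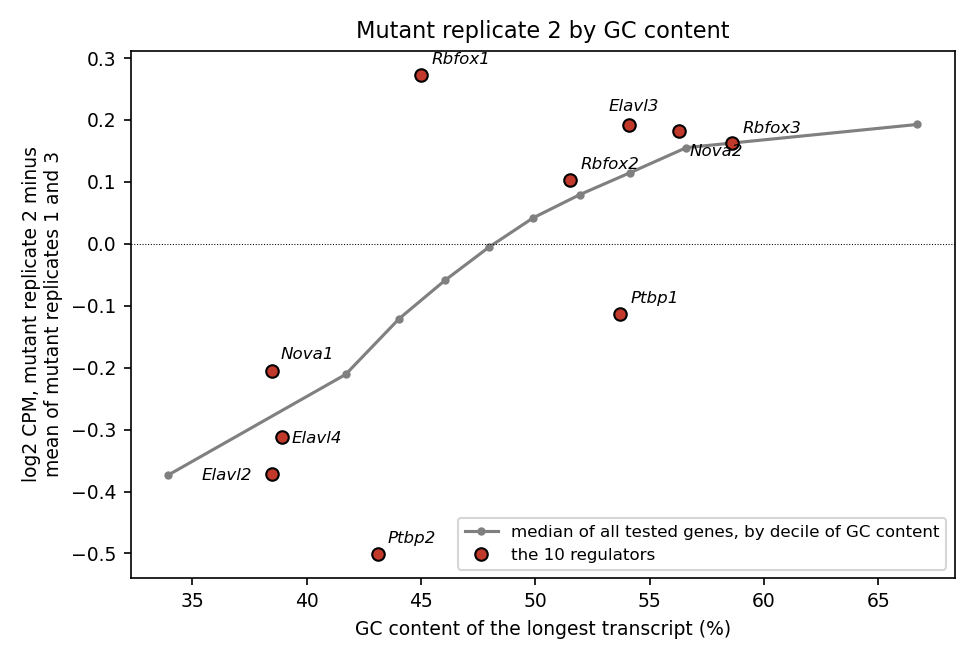
Log2 CPM of mutant replicate 2 minus the mean of mutant replicates 1 and 3 (vertical) against the GC content of the longest transcript (horizontal) for the 10 regulators, with the median of all tested genes by decile of GC content at the midpoint of each decile (grey line). The grey medians run from -0.37 to 0.19, with Elavl2, Elavl4 and Nova1 at the low end and Rbfox3 at the high end.

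Patterns over the 6 libraries were compared with those of 10205 protein-coding genes averaging at least 10 CPM. This is a description only, since single libraries shape such likeness. For Ptbp1 these were the replicate 3 libraries of both genotypes. Elavl3 was highest in mutant replicate 2 (276 CPM) and lowest in control replicate 1 (200 CPM). Rbfox3 was highest in control replicate 2 (37.8 CPM) and lowest in control replicate 1 (28.6 CPM). Closest to Ptbp1 were Dll1, a Notch ligand, Timeless, a replication fork protein, and Mbd4, a DNA glycosylase, each with Pearson's r = 0.997 of log2 CPM. For Ptbp1, 815 genes had r over 0.9. For Elavl3 the closest were Mn1, Dda1 and Apc2 (r = 0.996, 0.993 and 0.990), with 136 genes over 0.9. For Rbfox3 they were Git2, Pear1 and Ccdc97 (r = 0.978, 0.964 and 0.963), with 42 genes over 0.9.

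Other regulators of neural RNA were read from a list of 31 genes, all of them tested. These include the CELF, MBNL, Musashi, KHDRBS and PUM families, the neural splicing activators Srrm3 and Srrm4, the third PTB gene Ptbp3 and the widely expressed Hu gene Elavl1. None passed the threshold in either direction in edgeR's test. The log2 fold change was positive for 9 of the 31 and negative for 22, and its median was -0.05. The sign of that median rested on mutant replicate 2, without which it was 0.039, and it was 0.0065 with GC and length trends removed. Over all tested genes 9324 were positive and 10292 negative, and the median was -0.01. The smallest p belonged to Srrm3 at 0.20 ± 0.11 (log2 fold change, SE), with 33.3, 37.2 and 30.8 CPM in mutants and 26.8, 32.3 and 29.4 CPM in controls. Celf4 followed at 0.20 ± 0.14. Then came Mbnl2 at -0.14 ± 0.11, Celf6 at 0.15 ± 0.13, Mbnl1 at -0.13 ± 0.12 and Celf2 at -0.15 ± 0.14. Srrm4 had -0.08 ± 0.09, Elavl1 -0.04 ± 0.08 and Ptbp3 -0.12 ± 0.17. The groups overlapped for each gene named here.

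Transcripts that the members are known to bind or splice were read from a second list of 30 genes, again all tested, with gene-level counts that cannot show a change of exon. None passed the threshold. The log2 fold change was positive for 11 and negative for 19, and its median was -0.05, beside -0.01 over all tested genes. That median was 0.054 without mutant replicate 3 and 0.035 without control replicate 2, so its sign also depended on single libraries. Gap43, a growth cone gene whose transcript ELAVL4 stabilises, had a log2 fold change of 0.17 ± 0.13 (SE). The adhesion gene Nfasc had -0.09 ± 0.09, the kinase gene Src, with a neuronal exon under PTB control, 0.09 ± 0.09, the gephyrin gene Gphn, a NOVA target, 0.08 ± 0.08 and the synaptic gene Snap25 -0.13 ± 0.17. Dlg4, whose exon skipping under PTB proteins leads to transcript decay, held 110 CPM on average in mutants and 110 CPM in controls, a log2 fold change of 0.01 ± 0.11.

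Marker lists of cell types also held no gene past the threshold between genotypes. The medians were 0.00 for neurons, 0.06 for radial glia and progenitors, 0.07 for proliferating cells, 0.07 for the GABAergic lineage and 0.03 for the cortical excitatory lineage, each over 12 tested genes. For cells outside the neural lineage the medians were 0.02 for 7 endothelial and pericyte genes, 0.02 for 7 microglia genes, 0.07 for 8 red blood cell genes and 0.00 for 5 fibroblast genes. Oligodendrocyte precursors had a median of 0.12 over 5 genes. The list of muscle and other tissue genes had 0.25 over 5 tested genes, with Actc1 and Krt5 below the filter.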

How the data were processed

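Whole-forebrain RNA was sequenced single-end in 3 mutant and 3 control libraries. Per the labels' protocols, libraries came from a stranded total RNA kit with ribosomal RNA removal, while the molecule is given as polyA RNA. The authors deposited raw read counts, 1 whole number per Ensembl gene and library, with no normalization. Per the submitters' processing notes, reads were aligned to GRCm38 with HISAT2, handled with SAMtools 1.9 and counted with HTSeq 0.9.1. No source used here gives the counting mode or the strand setting.

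Symbols, coordinates, exon lengths and GC content came from GENCODE M21 on GRCm38, which matched 32888 of 33084 identifiers. Counts were analysed with edgeR 4.0.16 in R 4.3.3. The filter was filterByExpr (minimum count 10, minimum total 15), and libraries were scaled by TMM. Mutant was set against control by the robust quasi-likelihood F test without a covariate, and p-values were adjusted by Benjamini-Hochberg over all tested genes, with 0.05 as the threshold. Each standard error is the fold change divided by the root of its F statistic. Log2 CPM used a prior count of 2, and RPKM used the summed exon length. The fit was tested on simulated data.

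The members and lists were chosen with earlier results of these data known. The genes named are the 10 members, Dyrk1a, the 6 genes of smallest p in each related list (1 of them is not reported here), and the 3 genes of closest pattern to Ptbp1, Rbfox3 and Elavl3. Srrm4, Elavl1, Ptbp3 and Dlg4 were added after their values were seen. Alternatives were DESeq2 1.42.0 and its size factors, limma 3.58.1 voom with sample weights, no filter, a replicate block, a term for replicate 3, removal of GC and length trends, leaving out each library, only replicates 1 and 2, and another gene length. Figures were drawn with matplotlib 3.10.9. Within each genotype, pairs of libraries differed by far more than sampling noise (chi-square per gene of 10.3 to 33.1).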

Additional observations from a re-analysis of the deposited data

How the results depend on the processing

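No member passed the adjusted threshold under any of the 14 alternative fits, and the smallest adjusted p of a member over them was 0.483, for Elavl3 with sample weights. Elavl2, Nova2 and Rbfox2 stayed below 0 and Elavl3 above 0 in all of them, with ranges of -0.31 to -0.063, -0.38 to -0.11, -0.097 to -0.013 and 0.056 to 0.24. The other members, all near 0, changed sign in some. With sample weights Rbfox1 was 0.039, Rbfox3 0.051 and Dyrk1a 0.047. With GC and length trends removed Elavl4 was 0.074, Nova1 0.065, Rbfox1 0.035 and Dyrk1a 0.021. Leaving out 1 library at a time gave -0.071 to 0.079 for Elavl4, -0.20 to 0.033 for Nova1, -0.084 to 0.17 for Ptbp1, -0.19 to 0.095 for Ptbp2, -0.20 to 0.19 for Rbfox1, -0.14 to 0.056 for Rbfox3 and -0.053 to 0.052 for Dyrk1a. The cause was not tested. The members at an unadjusted p under 0.05 numbered 1 with no filter, with a term for replicate 3 and with GC and length trends removed (Nova2 each time), 1 with sample weights (Elavl3) and 1 with only replicates 1 and 2 (Elavl2), and 0 to 1 when 1 library was left out. Over the whole table, genes called numbered 3 with only replicates 1 and 2, none of them a member. Those at an unadjusted p under 0.05 numbered 1904 with sample weights, 587 with no filter, 845 with the replicate 3 term, 1544 with only replicates 1 and 2, and 179 to 1060 when 1 library was left out. The longest-transcript length changed the rank of 6 members.

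Same-numbered libraries were not taken as pairs, although the replicate 3 libraries stood apart from the others together: the correlations of their deviations from the group means were 0.241, 0.0711 and 0.355 for replicates 1, 2 and 3, and mutant replicate 1 was closer to control replicate 2 (0.348). With the replicate block, 765 genes and 1 member (Nova2) had an unadjusted p under 0.05, 0 were called, and Rbfox1 was 0.0033. The genotype difference in the ratios between family members moved by less than 1 pooled SD when any 1 library was left out. The other fits were not applied to the ratios. A change of gene length cannot move that difference, but it moved the ratios themselves. With the longest-transcript length the mean log2 values were 1.47 in place of 0.77 for Ptbp2 over Ptbp1 and -3.36 in place of -4.01 for Rbfox3 over Rbfox2. For Elavl2 over Elavl3 the value was 0.39 in place of -0.14.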

Other observations

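The replicate 3 libraries also differed in transcripts that the regulators bind, by values noticed in the data and named for their size. Within each genotype, the NMDA receptor gene Grin1 had log2 differences of -0.99 in mutants and -0.71 in controls between replicate 3 and the mean of replicates 1 and 2, and the potassium channel gene Kcnj6 had -0.68 in mutants and -0.65 in controls. The neurotrophin gene Bdnf had -0.56 in mutants and -1.22 in controls at a mean level of 3.28 CPM in mutants and 3.25 CPM in controls, and the tau gene Mapt had -0.64 in mutants and -0.45 in controls. The guidance receptor gene Dcc differed the other way, by 0.24 in mutants and 0.22 in controls, as did the filamin gene Flna at 0.20 in mutants and 0.27 in controls. Over the whole list of 30 transcripts the mean difference was -0.25 in mutants and -0.28 in controls. The neuron marker list had -0.34 in mutants and -0.30 in controls, and both lists hold Gap43, Mapt and Snap25. Both replicate 3 libraries lay above or below all of the other 4 for 34.4% of all tested genes. Such a shift is therefore not particular to transcripts that the regulators bind.

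Among the other regulators of neural RNA, Khdrbs2, a neuronal relative of Sam68, had -0.46 in mutants and -0.68 in controls on the same scale. Msi1, a marker of neural progenitors, had 0.30 in mutants and 0.46 in controls. Rest, a repressor of neuronal genes outside neurons, had 0.46 in mutants and 0.21 in controls, and Zfp36l1, which promotes decay of AU-rich transcripts, had 0.35 in mutants and 0.29 in controls. Srrm4 differed by less than 0.01 in both genotypes (0.0014 in mutants and 0.0015 in controls). Other genes of this list had opposite signs in the genotypes. Among them, Qk had 0.49 in mutants and -0.19 in controls, Ptbp3 0.44 in mutants and -0.29 in controls, and Fmr1 0.37 in mutants and -0.42 in controls. In mutant replicates 1, 2 and 3, Qk held 391, 273 and 459 CPM, Ptbp3 77.9, 55.8 and 89.4, and Fmr1 93.7, 56.9 and 94.1. Low values in mutant replicate 2 thus enter these mutant differences, and for Fmr1 mutant replicates 1 and 3 were nearly equal. Over all 31 regulators the mean difference was 0.10 in mutants and -0.09 in controls, so the list as a whole did not move the same way in both. The summed level of the list was 5588, 4793 and 5689 CPM in mutant replicates 1, 2 and 3, so mutant replicate 2 was low here too.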
